A study of Caenorhabditis elegans with 2 samples.

Results

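The cytosolic ribosomal protein genes of Caenorhabditis elegans were examined in a chromatin immunoprecipitation and sequencing (ChIP-seq) experiment on UNC-62. The family was taken as every protein-coding gene with an rpl or rps name and a number, together with rla-0, rla-1, rla-2 and ubl-1. This gave 82 genes of 19985 protein-coding genes in the annotation, 50 for the large and 32 for the small ribosomal subunit. The rule leaves out ubq-2, which encodes ubiquitin fused to the large-subunit protein L40. The family had been chosen from the measured values themselves, because members were seen among the deposited peaks, so its counts describe these lists and carry no test. Whole L4 larvae of strain OP600, males and females pooled, were used. This strain carries the unc119(ed3) allele and the transgene wgIs600, in which UNC-62 bears a TY1, EGFP and FLAG tag beside an unc119 copy. All samples form 1 group of 2 biological replicates, so no genotype, stage or treatment was compared. The antibody is labelled unc-62, with no word on whether it bound the protein or its tag. In whole worms the cell type in which a region was bound cannot be told apart.

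Ribosomes translate messenger RNA, and each is built from a small subunit, which reads the message, and a large subunit, which joins the amino acids. Growing larvae make ribosomes in large numbers, and ribosomal protein genes are among the most highly transcribed genes of an animal cell. UNC-62 is the worm's Meis and Homothorax protein, a homeodomain factor of the TALE class that binds DNA together with PBC-class partners. Meis proteins of other animals recognise a TGACAG core.

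A promoter region was counted for a gene when its summit lay between 1000 bp upstream and 500 bp downstream of any annotated start. The authors' short list, called thresholded here, held 197 regions, which were the 197 of highest signal in the pooled list of both replicates. The pooled list held 4849 regions, the list of replicate 1 held 18114 and that of replicate 2 held 20477. The longer lists contain background by design, so a region in them is not by itself a peak. Signal is the authors' own score against a control on a scale that differs between lists, and depth is unknown. Nearly all regions of a list have 1 width, 416 bp in the pooled list, and the stated summit is the middle of the region.

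Of the ribosomal protein genes, 4 had a thresholded region in the window, namely rpl-3, rpl-15, rpl-12 and rpl-20, all of the large subunit. Among all protein-coding genes 0.5% had one, and among nuclear ones 0.441%. In the pooled list, 25 of the 82 genes (30.5%) had a region, against 11.1% of all protein-coding genes. A q-value of 0.05 or less was reached at 7 of the 82 (8.54%), against 0.996% of all protein-coding genes, which added rpl-35, ubl-1 and rps-1 to the first 4. The 197 highest regions of replicate 1 alone included 2 of the genes (rpl-3 and rpl-12), and those of replicate 2 alone included 4 (rpl-3, rpl-15, rpl-20 and rpl-35), so rpl-3 was the member found in both. Mitochondrial regions were 21 of the 197 thresholded ones, and the lists of replicates 1 and 2 held 1 and 25 of them. Ranks in these lists therefore cover unlike numbers of nuclear regions. Nothing was read from the shares, since the pooled and thresholded lists chose the family.

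The stretches around the summits of the 5 large-subunit genes with a pooled q-value of 0.05 or less are shown because these regions carry the highest signals of the family. Each runs 100 bases to either side of the summit in build ce11, read 5′ to 3′ on the gene's own strand. That of rpl-12 stops at the annotated start. The sequence was read from the RefSeq WBcel235 assembly. Capitals mark matches, on either strand, to the searched words TGACA and AGATAA and to 4 words, AGTGTATG, GCGTGTTT, CGCTCCAC and TACGGTAA, that were picked after these stretches had been seen.
rpl-3 (chrIII:3867460-3867660, plus strand): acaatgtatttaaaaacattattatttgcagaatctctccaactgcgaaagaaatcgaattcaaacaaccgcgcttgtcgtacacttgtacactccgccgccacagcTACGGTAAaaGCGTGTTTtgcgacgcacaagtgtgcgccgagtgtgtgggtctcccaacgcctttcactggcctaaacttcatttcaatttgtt
rpl-15 (chrIV:654871-655071, minus strand): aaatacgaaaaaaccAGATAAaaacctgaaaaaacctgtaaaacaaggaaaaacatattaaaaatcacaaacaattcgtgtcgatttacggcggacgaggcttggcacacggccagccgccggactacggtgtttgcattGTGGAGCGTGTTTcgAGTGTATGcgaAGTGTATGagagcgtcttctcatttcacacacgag
rpl-12 (chrIV:13240652-13240798, minus strand): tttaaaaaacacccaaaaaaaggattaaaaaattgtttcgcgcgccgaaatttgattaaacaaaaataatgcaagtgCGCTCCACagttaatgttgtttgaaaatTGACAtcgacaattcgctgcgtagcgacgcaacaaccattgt
rpl-20 (chrIV:4749948-4750148, minus strand): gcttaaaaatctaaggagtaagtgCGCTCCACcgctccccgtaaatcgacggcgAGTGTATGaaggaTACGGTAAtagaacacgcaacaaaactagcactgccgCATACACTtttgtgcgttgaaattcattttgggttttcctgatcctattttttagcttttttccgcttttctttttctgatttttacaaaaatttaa
rpl-35 (chrIII:7854575-7854775, plus strand): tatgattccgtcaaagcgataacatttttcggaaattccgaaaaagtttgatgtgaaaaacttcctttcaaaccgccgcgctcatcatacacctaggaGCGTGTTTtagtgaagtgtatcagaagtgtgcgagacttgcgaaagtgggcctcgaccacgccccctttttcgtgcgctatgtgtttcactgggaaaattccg

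The Meis core TGACAG was in none of the 5 stretches, and rpl-12 alone among them held the shorter TGACA. Lower case carries no meaning beyond the absence of a match.

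**Figure D1:**
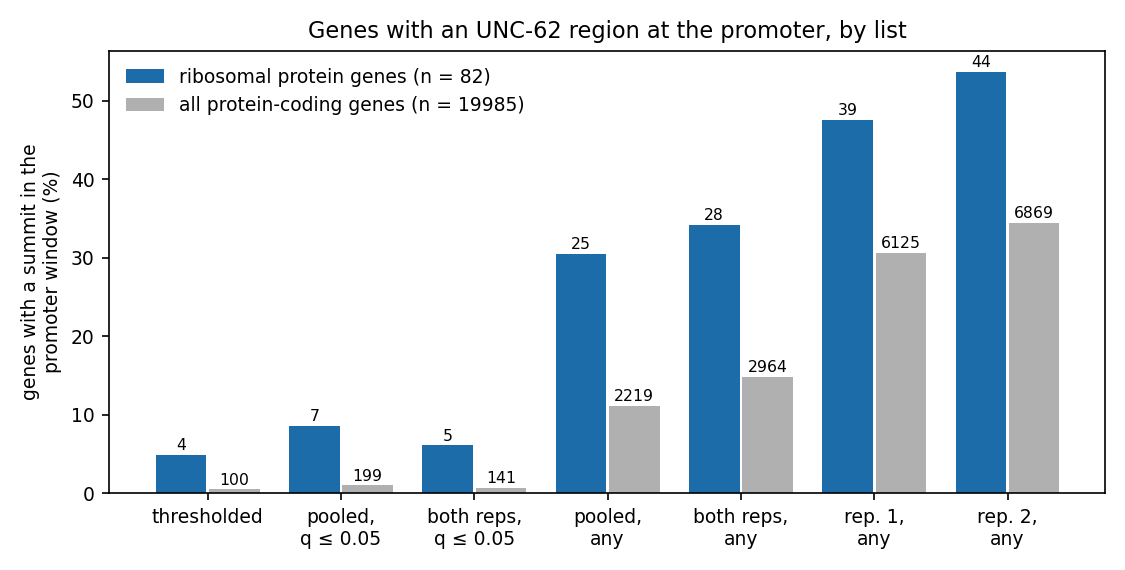
Percent of the ribosomal protein genes (blue, n = 82) and of all protein-coding genes (grey, n = 19985) with a summit in the promoter window, for 7 list rules, with the number of genes above each bar. The ribosomal protein genes stand at 4.88% in the thresholded list, against 0.5% of all protein-coding genes, and at 53.7% in the list of replicate 2, against 34.4%.

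The large-subunit gene with the highest signal was rpl-3, whose protein lies near the peptidyl transferase centre of the yeast ribosome. Its region (chromosome III, 3867352 to 3867767) ranked 55 in the pooled list with a signal of 32.9 and lay 294 bp upstream of the start. It ranked 110 in replicate 1 with a signal of 11.4 and 80 in replicate 2 with a signal of 18.9. Both replicates therefore placed it high, and their summits were 2 bp apart.

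The gene rpl-15 encodes another core protein of the large subunit. Its region (chromosome IV, 654763 to 655178) ranked 86 in the pooled list with a signal of 27.3, and its summit lay 395 bp upstream. The rank was 277 in replicate 1 (signal 8.42) and 115 in replicate 2 (signal 15.9), with summits 6 bp apart. The position was thus nearly the same in both, while the rank was higher in replicate 2.

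The protein of rpl-12 sits at the base of the ribosomal stalk in yeast and bacteria. Its region (chromosome IV, 13240490 to 13240905) was the closest to a start among the 4 thresholded ones, 47 bp upstream, between rpl-12 and lin-54, whose start lies 393 bp from that of rpl-12 on the other strand. The pooled rank was 162 with a signal of 22.0. Here replicate 1 placed the region higher, at rank 113 (signal 11.1), than replicate 2 at rank 327 (signal 11.2), the reverse of rpl-15.

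The last thresholded region was at rpl-20, which also encodes a large-subunit protein. This region (chromosome IV, 4749840 to 4750255) had a pooled rank of 181 and a signal of 21.1, 270 bp upstream of rpl-20. It lay between rpl-20 and the oppositely transcribed Y17G9B.5 and was 192 bp from the start of Y17G9B.5, so the nearest start was not that of the ribosomal gene. Rank was 479 in replicate 1 (signal 7.18) and 185 in replicate 2 (signal 13.6).

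Just outside the thresholded list, whose lowest signal was 20.6, were rpl-35 and ubl-1. The large-subunit gene rpl-35 had a pooled signal of 17.3 (rank 319, q = 0.0424) with a summit 459 bp upstream. It ranked 194 in replicate 2 (signal 13.3, q = 0.0181) but 4682 in replicate 1 (signal 3.83, q = 0.212). The pooled value of rpl-35 thus stood on 1 replicate. The thresholded members nearest to that limit, rpl-20 and rpl-12, had pooled signals of 21.1 and 22.0.

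**Figure D2:**
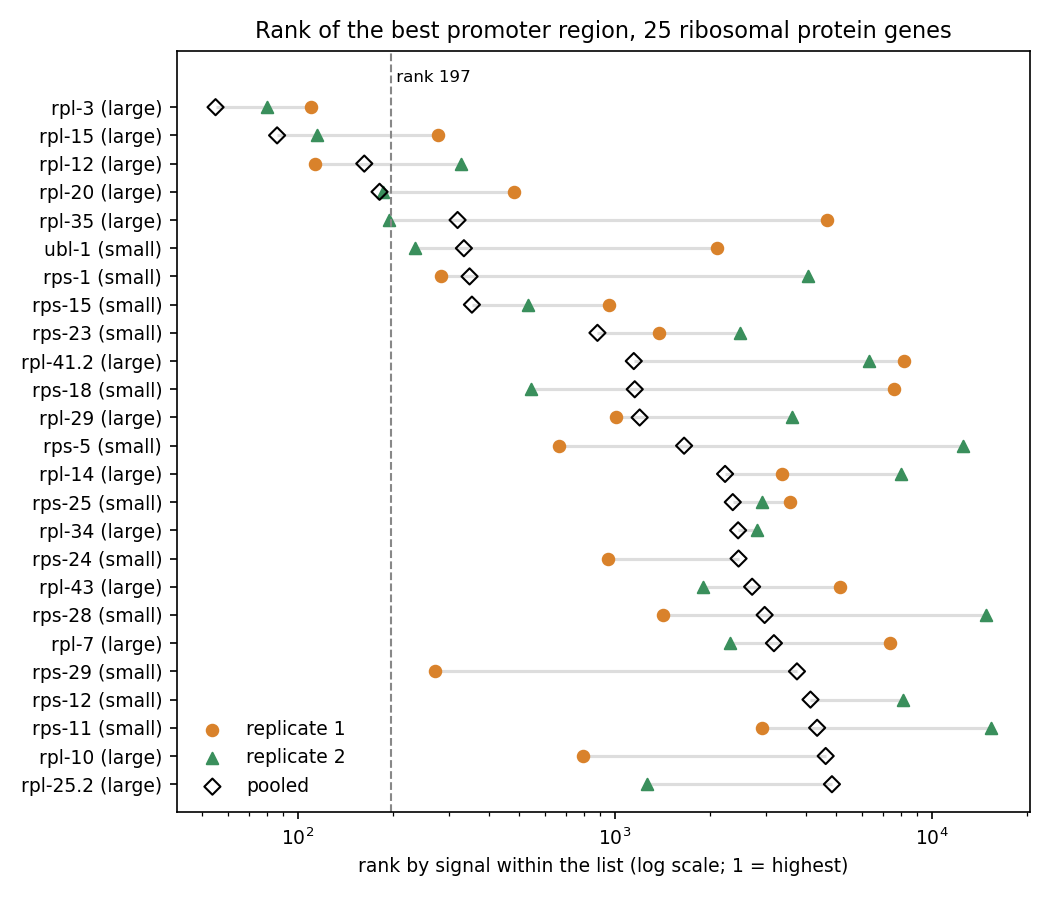
Rank by signal (log scale, 1 is highest) of the best promoter region of the 25 ribosomal protein genes with a pooled region, in replicate 1 (circles), replicate 2 (triangles) and the pooled list (open diamonds), with the subunit in brackets. A missing symbol means no region in that list, and the dashed line marks rank 197. The first 8 genes lie at pooled ranks 55 to 354 and the next, rps-23, at 881.

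No small-subunit gene had a thresholded region, and 2 of 32 reached a pooled q-value of 0.05 or less. One was ubl-1, which encodes a ubiquitin-like domain fused to the small-subunit protein S27a. Its pooled region (chromosome III, 3068355 to 3068770) had a signal of 16.9 (rank 334, q = 0.0465), with the summit in an intron 246 bp downstream of the start. The rank was 2094 in replicate 1 (signal 4.87, q = 0.0829) and 234 in replicate 2 (signal 12.6, q = 0.015). The snoRNA gene H06I04.9 lay 1 bp from this summit and H06I04.8 lay 243 bp away. For ubl-1, too, replicate 2 held the higher rank.

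The other was rps-1, a core small-subunit protein gene. Its region (chromosome III, 4475452 to 4475867) had a pooled signal of 16.7 (rank 348, q = 0.0475) 258 bp upstream, in an exon of the non-coding gene F56F3.10. In rps-1 replicate 1 held the higher rank, 283 (signal 8.36, q = 0.00885), against 4068 in replicate 2 (signal 5.56, q = 0.447). The 3 genes rpl-35, ubl-1 and rps-1 thus each had a q-value of 0.05 or less in only 1 replicate.

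The small-subunit gene rps-15 stood just past that limit in the pooled list, with a signal of 16.6 (rank 354, q = 0.0523) 385 bp upstream. Both replicates nevertheless gave it a q-value of 0.05 or less, 0.0287 in replicate 1 (rank 958, signal 5.96) and 0.0386 in replicate 2 (rank 532, signal 9.73). After rps-15 the family thinned out, the next being rps-23 at rank 881 (signal 12.3, q = 0.257), whose protein lies at the decoding centre in yeast. Its summit was in a coding exon 83 bp downstream of the start.

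Next in order came rpl-41.2 at rank 1147, rps-18 at 1155, rpl-29 at 1197 and rps-5 at 1653. Their pooled q-values ran from 0.382 to 0.553. In rps-18 the best regions of the replicates were at different places, with summits 337 bp apart. That of replicate 1 ranked 7565 (signal 3.19) and lay 953 bp upstream, and that of replicate 2 ranked 542 (signal 9.68), 616 bp upstream. In rps-5 the order was the other way round, with rank 664 in replicate 1 (signal 6.54) and 12488 in replicate 2 (signal 3.69).

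Ranks from 2226 to 3174 belonged to rpl-14, rps-25, rpl-34, rps-24, rpl-43, rps-28 and rpl-7. Of these, rpl-34 had no region in the list of replicate 1 and rps-24 none in that of replicate 2. The lowest 5 pooled regions, at ranks 3752 to 4837, were at rps-29, rps-12, rps-11, rpl-10 and rpl-25.2. Among them rps-29 had a rank of 270 in replicate 1 (signal 8.45, q = 0.00928) and no region in replicate 2. Likewise rpl-10 had a rank of 795 in replicate 1 (signal 6.32) and none in replicate 2. Such genes had a high value in 1 library and none in the other.

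The stalk proteins, which recruit translation factors to the large subunit, are encoded by rla-0, rla-1 and rla-2. None had a pooled region. The only region among them was at rla-0 in replicate 2, with a rank of 6296, a signal of 4.82 and a q-value of 0.611. No list held a region at rla-1 or rla-2.

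Some members share a number with another member. In each of the pairs rpl-11, rpl-24, rpl-25 and rpl-41, the gene numbered 1 had no region in any list. Among all protein-coding genes 49.7% had none. Of the genes numbered 2, rpl-41.2 (signal 11.3) and rpl-25.2 (signal 7.60) had a pooled region. In rpl-11.2 (rank 5541) and rpl-24.2 (rank 7832) there was a region in replicate 2 only. The rpl-41 genes lie in tandem, and the pooled summit 325 bp upstream of rpl-41.2 lay 777 bp downstream of the rpl-41.1 start. How the authors placed reads that match more than 1 gene is not stated.

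By subunit, 13 of 50 large-subunit genes (26.0%) and 12 of 32 small-subunit genes (37.5%) had a pooled region. With a q-value of 0.05 or less the order was the other way, with 5 of 50 for the large and 2 of 32 (6.25%) for the small subunit. Replicate 1 gave 7 of 50 (14.0%) for the large and 8 of 32 for the small subunit at that limit. Replicate 2 gave 5 of 50 for the large and 3 of 32 (9.38%) for the small subunit. The shares of all protein-coding genes under these rules, in the same order, were 11.1%, 0.996%, 3.75% and 1.71%. The subunit with the larger share thus depended on the list and on the limit, apart from the 4 thresholded genes, which were all large-subunit genes.

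In the single replicates, 39 of 82 ribosomal protein genes (47.6%) had a region in replicate 1, against 30.6% of all protein-coding genes. In replicate 2 it was 44 of 82 (53.7%), against 34.4%. A region in both, not necessarily at the same place, was present at 28 of 82 (34.1%), against 14.8%. At a q-value of 0.05 or less the counts were 15 in replicate 1 (18.3%, against 3.75%) and 8 in replicate 2 (9.76%, against 1.71%). Both replicates reached it at 5 genes (6.1%, against 0.706%), which were rpl-3, rpl-12, rpl-15, rpl-20 and rps-15. No other member reached this limit in both libraries.

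Of the 82 genes, 27 (32.9%) had no region in any list, against 49.7% of all protein-coding genes, 17 of the large and 10 of the small subunit. A further 30 (36.6%) had a region in a replicate list only, against 39.2%. In replicate 1 alone among the replicates there were 11 genes (13.4%, against 15.8%) and in replicate 2 alone 16 (19.5%, against 19.5%), shares close to those of all genes. The genes rpl-21 (rank 904) and rps-21 (rank 636), singled out after their values were seen, had q-values of 0.0238 and 0.0197 in replicate 1 with no region in replicate 2 or in the pooled list. At 19 genes (23.2%, against 7.48%) the window held a region in the pooled list and in both replicates, not necessarily at the same place.

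The signal of replicate 2 over that of replicate 1, on the log2 scale, had a median of 0.61 over the 28 ribosomal protein genes with a region in both, against 0.47 over the 2964 protein-coding genes with both. Single genes ran from −0.83 at rps-5 to 1.80 at rpl-35. Among the 15 large-subunit genes 14 were above 0, and among the 13 small-subunit genes 9 were. The list scales differ, so the level of these ratios is not a change in binding. Across the 28 genes Spearman's rho between the replicates was 0.45 and Pearson's r of log2 signals 0.51, against 0.25 and 0.37 across all 2964. These points share the same 2 libraries, and genes are not replicates.

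**Figure D3:**
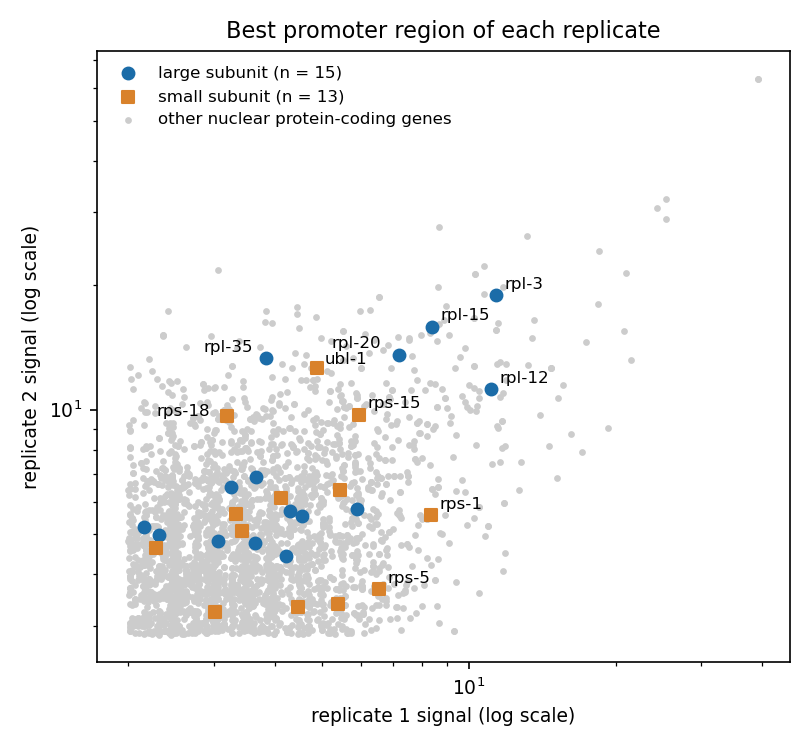
Signal of the best promoter region in replicate 1 (horizontal, log scale) and in replicate 2 (vertical, log scale) for the 15 large-subunit (blue circles) and 13 small-subunit genes (orange squares) with a region in both, over other nuclear protein-coding genes (grey). The genes rpl-3, rpl-15 and rpl-12 lie to the upper right, rpl-35 high in replicate 2 only, and rps-1 and rps-5 high in replicate 1 only.

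Summits of the best regions of the replicates lay a median of 180.5 bp apart at ribosomal protein genes, against 320 bp at all protein-coding genes. They were within 100 bp of each other at 12 of 28 ribosomal protein genes and at 746 of 2964 protein-coding genes. For the 4 thresholded members the gap was between 2 and 22 bp. At rpl-43 the best summits were 1230 bp apart. Replicate 1 also held a weaker region there (rank 10087) 839 bp upstream, close to the best one of replicate 2, 753 bp upstream, so both lists held that place and ranked it differently.

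Most summits lay upstream, at ribosomal protein genes as at all genes. The window reaches 1000 bp upstream and only 500 bp downstream, which by itself favours upstream summits. The median position was 360 bp upstream over the 25 genes with a pooled region and 211 bp upstream over the 2219 protein-coding genes with one. Of the 25 summits, 22 (88.0%) were upstream, against 73.8% of the 2219, and 3 (ubl-1, rps-23 and rps-29, all of the small subunit) were downstream of the start. The stretch more than 200 and up to 400 bp upstream held 11 of 25 (44.0%), against 16.9% of all. In the last 200 bp before the start it was 3 of 25, against 22.8%. The median was 370 bp upstream for the large and 301 bp upstream for the small subunit, a difference smaller than the 416 bp width of a region.

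**Figure D4:**
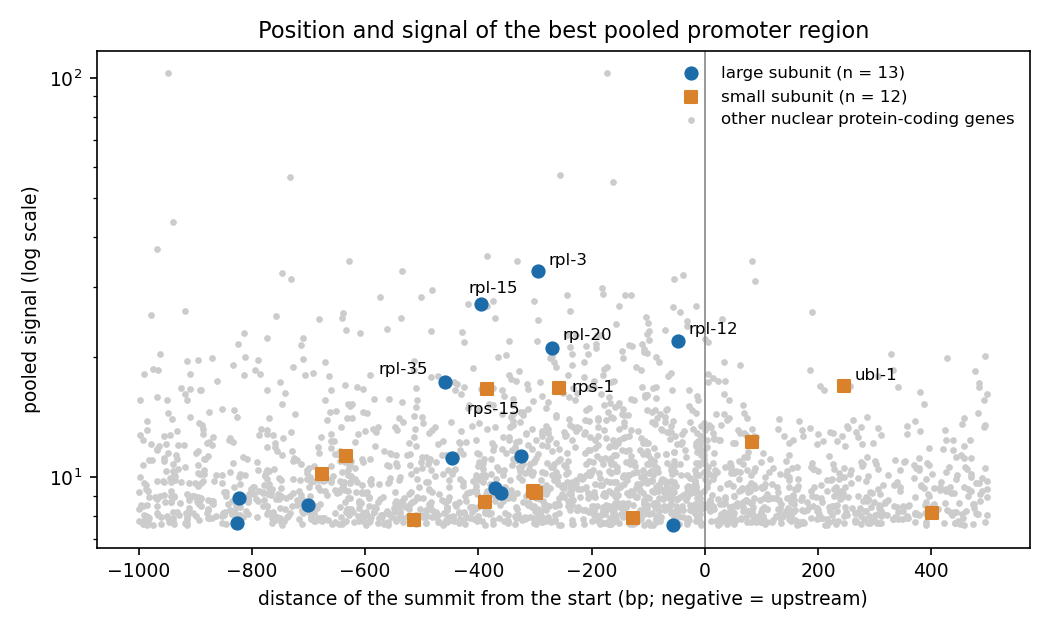
Distance of the best pooled summit from the start (bp, negative is upstream) against its pooled signal (log scale) for 13 large-subunit (blue circles) and 12 small-subunit genes (orange squares), over other nuclear protein-coding genes (grey). All 13 large-subunit summits are upstream, and rpl-3, rpl-15 and rpl-20 lie 270 to 395 bp before the start.

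Summits were intergenic in 20 of 26 pooled regions at ribosomal protein genes (76.9%), since rps-18 had a second region, against 48.0% of the 2126 nuclear pooled promoter regions. A snoRNA gene lay within 500 bp of 4 of the 26 (15.4%), at ubl-1, rps-23, rps-29 and rps-12, against 1.36%. Ribosomal protein genes often host or neighbour snoRNA genes, with or without a region. Of the 82 members, 16 (19.5%) had a snoRNA gene reaching into the promoter window, against 0.821% of all protein-coding genes. The share was 6 of 25 (24.0%) with a pooled region and 10 of 57 (17.5%) without. The part of snoRNA genes in these signals was not tested.

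Many ribosomal protein genes share an upstream interval with an oppositely transcribed gene. A divergent start within 1000 bp was present for 48 of 82 members (58.5%), against 18.2% of nuclear protein-coding genes. This was so for 14 of 25 members with a pooled region (56.0%) and 34 of 57 without (59.6%), so this divergent layout was common in both. For 10 of the 14 the summit lay between both starts, and in 4 of these 10 it was nearer to the partner. A gene on the same strand ended within 1000 bp upstream for 5 of 25 members with a pooled region and 21 of 57 without. The share of this layout over all genes was not taken, and the difference was not tested. No pooled region lay in the windows of several ribosomal protein genes. The best summit was in the window of a further protein-coding gene for 16 members and in no other window for 9.

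For 6 members the nearest start belonged to another gene. They were rpl-20 with Y17G9B.5, rps-18 with sec-61.A, rpl-34 with ppm-1.H, rpl-43 with Y48B6A.1, rpl-7 with rab-11.1 and rpl-10 with ints-11. At other members the starts were nearly equally far. The rpl-15 summit was 395 bp from rpl-15 and 419 bp from the divergent K11H12.8, and the rps-15 summit 385 bp from rps-15 and 396 bp from the divergent F36A2.9. The lists do not say which gene a region between such starts belongs to.

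The count varied by chromosome. On chromosome IV 12 of 18 ribosomal protein genes (66.7%) had a pooled region, against 11.7% of all protein-coding genes there. On chromosome III it was 6 of 19 (31.6%), against 12.9%, and on chromosome I 5 of 25, against 9.83%. On chromosome II 2 of 10 had one, against 10.9%, on V 0 of 8, against 8.99%, and on X 0 of 2, against 13.7%. The 7 members with a pooled q-value of 0.05 or less lay on III (4 of 19, against 1.4% of all protein-coding genes there) and IV (3 of 18, against 1.22%). Replicate 1 placed 8 of the 18 genes on IV at that limit (44.4%, against 3.78% there), and 7 elsewhere. The rla-2, rpl-7A, rps-2 and rps-4 genes on chromosome IV had no region in any list.

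**Figure D5:**
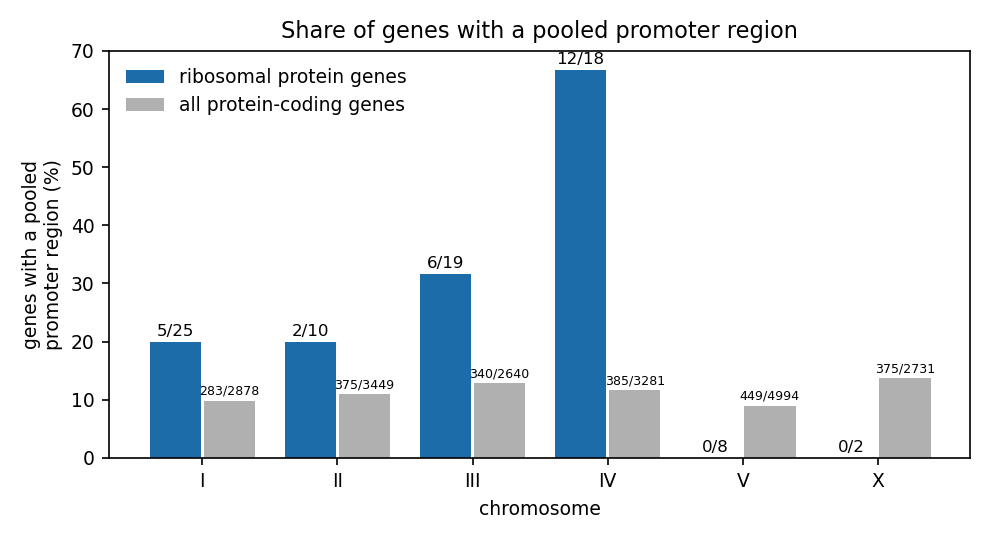
Percent of genes on each chromosome with a pooled promoter region, for ribosomal protein genes (blue, left bar) and all protein-coding genes (grey, right bar), with the counts above the bars. Chromosome IV stands at 66.7% for ribosomal protein genes, against 11.7%, and V and X at 0.

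Base composition and short words were compared within 100 bp of the summit. Median GC content was 40.5% in the 26 regions at ribosomal protein genes, against 36.8% in all 2126 nuclear pooled promoter regions. Bases that RefSeq marks as repeated or of low complexity filled at least 50% of the stretch in 7 of 26 (26.9%), against 13.2%. In the printed stretches 42 bases of rpl-3, 93 of rpl-15, 112 of rpl-12, 64 of rpl-20 and 49 of rpl-35 were marked so. The part of repeated sequence in these signals was not tested.

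The Meis core TGACAG, searched on both strands, was in 1 of 26 regions at ribosomal protein genes (3.85%, at rps-25) and in 8.75% of all 2126. Where the q-value reached 0.05 it was in 0 of 7 regions at ribosomal protein genes, against 21.4% of 159. The shorter TGACA, which every TGACAG contains, was in 5 of 26 (19.2%), against 40.3%. The GATA-type words AGATAA and TGATAA, which share the letters GATAA, were in 3 (11.5%) and 4 (15.4%) of 26, against 14.2% and 29.0%. GAGAGAG was in 2 of 26 (7.69%), against 7.86%, CACGTG in 1 (3.85%), against 6.11%, and GGGCGG in 2 (7.69%), against 5.27%. A match is a description of the letters and not a binding site, and these 7 words name only what was looked for.

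The words picked after the stretches had been seen were each in 3 to 5 of the 26 regions. CGCTCCAC was in 5 (19.2%), at rpl-12, rpl-15, rpl-20, rps-1 and rps-15, against 0.894% of all 2126. TACGGTAA was in 5, at rpl-3, rpl-20, rpl-34, rps-1 and rps-18, against 0.706%. AGTGTATG was in 3 (rpl-15, rpl-20 and rps-1), against 0.659%, and GCGTGTTT in 3 (rpl-3, rpl-15 and rpl-35), against 1.03%. In rpl-15 the matches to CGCTCCAC and GCGTGTTT overlap. These words came out of a look at all 8719 words of 6 to 8 letters in the 26 regions and at 10 words picked by eye, which fixes high counts. In the 600 bp before the start, TACGGTAA was in 5 of 25 members with a pooled region and in 8 of 57 without (14.0%), against 2.32% of nuclear protein-coding genes. CGCTCCAC was there in 5 of 25 and 2 of 57 (3.51%), against 1.47%. AGTGTATG was in 3 of 25 and 0 of 57, against 1.23%, and GCGTGTTT in 3 of 25 and 1 of 57, against 1.99%. All 4 words were picked from regions at members with a pooled region, so that group was favoured in advance. Nothing was read from the split. Of the words picked by eye, AGTGTA was in 11 of 82 members (13.4%), against 20.9%, and GTACAC in 8 (9.76%), against 14.0%. GTGCGC and TGTGCG were each in 22 of 82 (26.8%), against 10.1% and 13.4%, AGTGTG in 24.4%, against 21.1%, and GCGCTCCAC, which contains CGCTCCAC, in 4.88%, against 0.796%.

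Other genes of protein synthesis and folding give a frame for these counts. Of 70 mitochondrial ribosomal protein genes, 6 (8.57%) had a pooled region and none a thresholded one. Of 39 translation factor genes, 8 (20.5%) had a pooled region, and iff-2 alone a thresholded one. Of 31 aminoacyl-tRNA synthetase genes, 9 (29.0%) had a pooled region and none a thresholded one. Of 14 chaperone genes, 6 (42.9%) had a pooled region, and hsp-1, hsp-3 and hsp-90 had a thresholded one. Among all protein-coding genes 11.1% had a pooled region and 0.5% a thresholded one. The 30.5% of the cytosolic ribosomal protein genes thus lay near the share of the synthetases in the pooled list. A pooled q-value of 0.05 or less was reached at 7 of 82 ribosomal protein genes (8.54%), 0 of 31 synthetases and 5 of 14 chaperones (35.7%). It was reached at 0 of 70 mitochondrial ribosomal protein genes and 1 of 39 translation factors (2.56%), against 0.996% of all protein-coding genes. At shares of 0.5% and 0.996% over all genes, lists of 31 or 70 genes are too short to read anything from the lack of such regions. No difference between these lists was tested.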

How the data were processed

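UNC-62 ChIP-seq of 2 biological replicates was read from the ce11 region lists that the authors deposited. Per the file headers, each replicate list was made from that replicate and a control, the pooled list from both, and the thresholded list from these by irreproducible discovery rate. The names of the aligner and caller and the threshold used are not given in these sources. The signal that the authors deposited ranked regions within a list, and their deposited −log10 q-value gave the limit of 0.05. The lists hold no counts, so no error or interval of a single value could be given. The lists share reads, so they are not independent. The control library and the ce10 lists were not analysed here. Genes and starts came from Ensembl release 115 (WBcel235, the assembly of ce11). Assignment of summits to windows was tested on simulated regions. Python 3.11.15, pandas 2.3.3 and numpy 2.4.6 were used. The family, lists, words and alternatives were chosen with earlier results of these data known. Genes named were those with a thresholded region, a pooled q-value of 0.05 or less, that q-value in both replicates, the 20 highest pooled signals, the rla genes, ubl-1 and the 2 just outside the thresholded list. Further genes are named in counts.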

Additional observations from a re-analysis of the deposited data

How the results depend on the processing

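Of 27 alternatives, 19 left a count within 1.5 times of its value, or a median within 10 percent, and 8 did not. The share in brackets is that of all protein-coding genes under the same setting. With a window from 500 bp upstream to 200 bp downstream, members with a region in both replicates numbered 15 (6.72%), against 28 (14.8%) in the wider window. Requiring any summit pair of the replicates within 100 bp, not the best pair alone as for the 12 genes above, gave 14 (5.2%), and a q-value of 0.05 or less in both lists gave 5 (0.706%). Of the thresholded regions, those above their median signal held 2 members (0.22%), against 4 (0.5%) in the whole list. Taking the 197 highest regions of a single replicate in place of the pooled list gave 2 members without replicate 2 (rpl-3 and rpl-12, 0.48%) and 4 without replicate 1 (rpl-3, rpl-15, rpl-20 and rpl-35, 0.515%), so the range was 2 to 4. The 1000 highest nuclear pooled regions held 9 members (2.83%). The median log2 ratio of replicate 2 to replicate 1 was 0.92 over the 7 members with a pooled q-value of 0.05 or less, against 0.61 over 28. For all protein-coding genes it was 0.52 over the 179 at that limit and 0.47 over 2964. TGACAG was in 0 of 26 regions within 50 bp, against 5.03% of all 2126 nuclear pooled promoter regions. No paired analysis was possible because there is 1 group and no test. Lists of regions without counts limit every value here: depth is unknown, summits are no finer than the region width, and replicate lists include background.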
